A study of Saccharomyces cerevisiae with 4 samples.

Results

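The genes described here act at the yeast plasma membrane: PMA1 and PMA2, which encode proton pumps of the plasma membrane, PMP1 and PMP2, which encode small regulators of the pump, and HSP30, YRO2 and MRH1, which encode related membrane proteins. They were taken by gene name, through the locus tag on the array, and all 7 were found, each with 1 probe, among 6144 genes tested. Transcripts were measured in Saccharomyces cerevisiae of a strain labelled BY4741, a common laboratory haploid, in which estradiol induces Msn2A6. Msn2 is a zinc finger activator of stress genes that protein kinase A restrains, and the labels do not define the A6 allele. Cultures of 50 ml in rich glucose medium at 30 °C gave 2 untreated samples (Msn2A6_0min) and 2 samples taken 90 min after 6 nM estradiol (Msn2A6_90min), described by the series as biological replicates. The promoter and copy of the induced gene are not given in the sources used here, and both groups carry the same construct as far as the labels say. No untreated culture at 90 min was part of the design, so estradiol, Msn2A6 and further growth cannot be told apart.

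Pma1 is a P-type ATPase that spends ATP to push protons out of the cell. It keeps the cytosol near neutral and builds the membrane potential that drives nutrient uptake, and glucose raises its activity through phosphorylation of its C-terminal tail. Pma2 is a minor isoform, Pmp1 and Pmp2 are nearly identical proteolipids that raise pump activity, and Hsp30 is a stress-induced membrane protein known for restraining the pump under stress. Yro2 and Mrh1 are paralogs related to Hsp30, both located at the plasma membrane, and what they do there is less clear.

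The arrays shared 1 slide and 1 day of scanning, so neither separates the groups. Of 6256 yeast probes, 6151 to 6191 on each array exceeded background clearly, with 0 saturated yeast spots. Whether the MSN2 probe reads the induced allele, any resident MSN2 gene or both was not tested, as probe sequences were not used here. The probe gave signals of 61.9 and 59.3 units at 0 min and of 330.1 and 261.6 units at 90 min (log2 change 2.47 ± 0.09, SE, 5.55-fold, limma adjusted p = 1.34e-06). This probe was dim at 0 min, beside a background of 20.5 to 21 units, and the log2 change of MSN2 was 1.71 with normexp correction and 1.82 in the deposited values, still called in both. Markers did not settle the strain: 14 of 14 probes for MATa-specific, MATalpha-specific and auxotrophic marker genes were flagged well above background on all 4 arrays, including HIS3, LEU2, MET17 and URA3, which BY4741 lacks in part or whole. Of the 4 MATalpha-specific probes, those for STE3, MF(ALPHA)1 and MF(ALPHA)2 gave 17.7 to 107.7 units and that for SAG1 770.6 to 1192 units. The 6 MATa-specific probes gave 642.7 to 13905 units. The 4 auxotrophic marker probes were bright, with 14966 to 276277 units, where the arrays' 75th percentile signals were 8084 to 9694 units. All 6 MATa-specific genes fell between the groups (log2 changes from -1.48 to -0.48), and 2 of the 4 MATalpha-specific genes fell, and the part of mating-type expression in the results below was not tested.

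After 90 min the main pump gene and 4 of the regulator genes had fallen, while the minor pump gene and the stress-induced restrainer had risen. PMA1 fell 2.57-fold, MRH1 2.67-fold, PMP1 2.34-fold, YRO2 1.82-fold and PMP2 1.67-fold. HSP30 rose 2.4-fold and PMA2 rose 2.23-fold (limma, adjusted p under 0.05 for each, n = 2 arrays per group). Calls were common in this comparison: 76.5% of all genes tested were called, 30.3% as higher and 46.2% as lower. The 2 members that rose and 5 that fell are therefore read by the size of their change. At least 2-fold lower were 3 of the 7, against 3.87% of all genes, and at least 2-fold higher were 2 of the 7, against 8.92% of all genes. The members were chosen by function with earlier results known, and these shares are a description. The median member change was -0.86 on the log2 scale, beside a median of -0.13 over all genes tested.

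**Figure D1:**
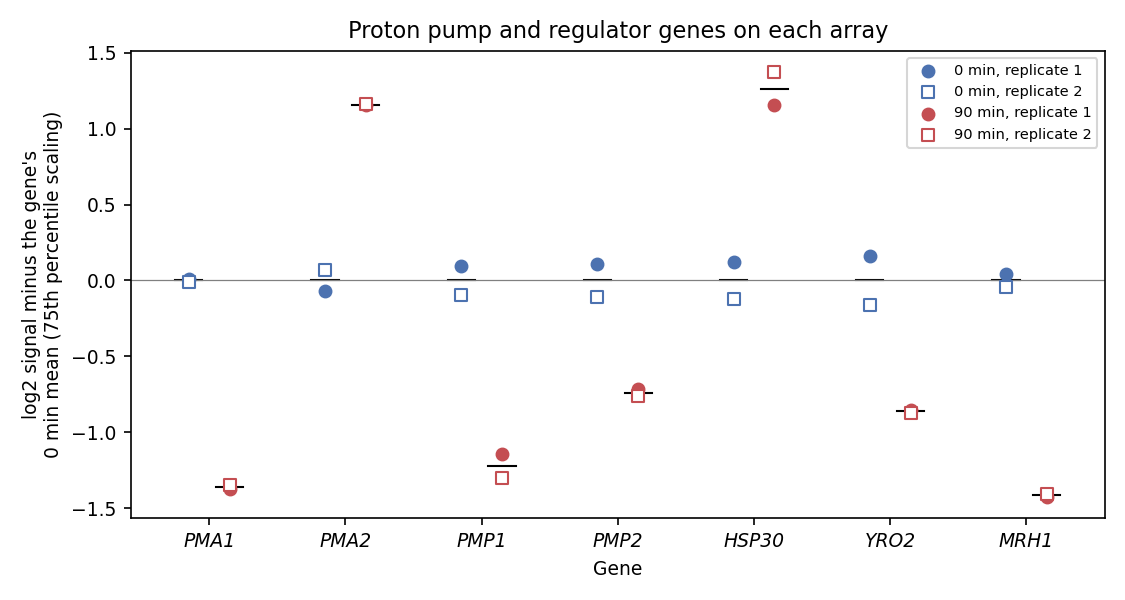
Points give the log2 signal of each of the 7 genes on each array, scaled to the array's 75th percentile and shown relative to that gene's mean at 0 min. Circles are replicate 1, squares replicate 2, and short black lines are group means. PMA2 and HSP30 lie above their 0 min arrays and the other 5 genes below them, with no overlap between groups. Groups also did not overlap for 88.4% of all genes tested.

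Values are given first as processed spot intensity in arbitrary units, the mean of 2 spots, and then as log2 signal after dividing by the array's 75th percentile signal. Levels cannot be set against each other between probes, so each gene is read against itself. A change relative to the 75th percentile is relative to the other genes. With scaling on 10 probes for spike-in control RNA, whose added amounts are not given in the sources used here, each log2 change is 0.45 lower, and with no scaling between arrays 0.19 lower. The median change of all genes was then -0.58 and -0.32. The RNA came from whole cultures, so fewer transcripts in every cell and fewer cells with many transcripts cannot be told apart.

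PMA1 (YGL008C, chromosome VII), the essential proton pump gene, gave 160316 and 160983 units at 0 min and 56204 and 53119 units at 90 min. The replicate arrays lay close together and both 90 min arrays were about as far below the 0 min arrays. On the log2 scale the level was 4.06 ± 0.01 (SD, n = 2) at 0 min and 2.70 ± 0.02 at 90 min. The change was -1.36 ± 0.05 (SE, 95% interval -1.49 to -1.23, limma adjusted p = 2.49e-06). It was the 92nd lowest change of 6144 genes. With spike-in scaling the change was -1.81.

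PMA2 (YPL036W, chromosome XVI), the minor isoform, gave 410.4 and 459.4 units at 0 min and 879 and 816.3 units at 90 min. Both treated arrays were above both untreated arrays, and the probe was well above the background of 20.5 to 21 units on all 4. Its log2 level went from -4.47 ± 0.10 to -3.31 ± 0.003 (SD, n = 2 each), a change of 1.16 ± 0.07 (SE, 95% interval 1.00 to 1.32, adjusted p = 1.07e-05, limma). The size depends on scaling: it was 0.71 with spike-in scaling, where it was still called. The coding sequences of the pair are similar and the probe sequences were not used here, so signal shared between the PMA1 and PMA2 probes was not tested. The 2 probes moved in opposite directions, and how far shared signal affects the size of the PMA2 change was not tested.

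PMP1 (YCR024C-A, chromosome III) gave 14093 and 12510 units at 0 min and 5454 and 4522 units at 90 min. PMP2 (YEL017C-A, chromosome V) gave 7436 and 6487 units at 0 min and 3836 and 3448 units at 90 min. For both proteolipid genes the groups did not overlap, as for 88.4% of all genes tested, and in both groups replicate 1 was the higher array. The change of PMP1 was -1.22 ± 0.09 (SE, 95% interval -1.44 to -1.01, limma adjusted p = 3.17e-05). The change of PMP2 was -0.74 ± 0.08 (95% interval -0.94 to -0.54, limma adjusted p = 0.000238), and was -1.19 with spike-in scaling. The 2 proteins are nearly identical, and shared signal between their probes was not tested either.

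HSP30 (YCR021C, chromosome III), the stress-induced restrainer of the pump, gave 29860 and 25637 units at 0 min and 55999 and 60320 units at 90 min. Both treated arrays were well above both untreated arrays. The log2 level rose from 1.53 ± 0.17 (SD, n = 2) in untreated to 2.79 ± 0.15 in treated cultures. The change of 1.26 ± 0.11 (SE, 95% interval 1.01 to 1.52, limma adjusted p = 6.2e-05) was the 379th highest of 6144 genes. With spike-in scaling it was 0.81 and still called. The replicates of HSP30 were 0.24 log2 apart at 0 min and 0.22 at 90 min, wider than for PMA1 (0.02 and 0.03).

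YRO2 (YBR054W, chromosome II), a gene known as a target of the weak acid factor Haa1, gave 12576 and 10228 units at 0 min and 5699 and 5214 units at 90 min. The untreated arrays differed by 0.32 log2, the widest replicate gap among the 7 genes, while the treated arrays differed by 0.02. The change was -0.86 ± 0.10 (SE, 95% interval -1.11 to -0.61, limma adjusted p = 0.000351), or -1.32 with spike-in scaling.

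MRH1 (YDR033W, chromosome IV), the paralog of YRO2, gave 102050 and 97836 units at 0 min and 33816 and 31682 units at 90 min. Replicates were close in both groups, and both treated arrays were far below both untreated ones. The log2 level fell from 3.38 ± 0.06 (SD, n = 2) in untreated to 1.96 ± 0.01 in treated cultures. The change of -1.42 ± 0.06 (SE, 95% interval -1.56 to -1.27, limma adjusted p = 2.81e-06) was the 72nd lowest of 6144 genes, and it was -1.87 with spike-in scaling.

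The 2 spots of each probe gave a second reading of the same sample. Their gap on 1 array was at most 0.34 log2, for PMP2, and at most 0.09 for PMP1. The change computed from either spot alone was -1.38 and -1.34 for PMA1, 1.10 and 1.22 for PMA2, -0.79 and -0.68 for PMP2, and 1.28 and 1.25 for HSP30. For MRH1 it was -1.47 and -1.36, for PMP1 -1.24 and -1.21, and for YRO2 -0.86 and -0.87. No change turned on which spot was read.

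**Figure D2:**
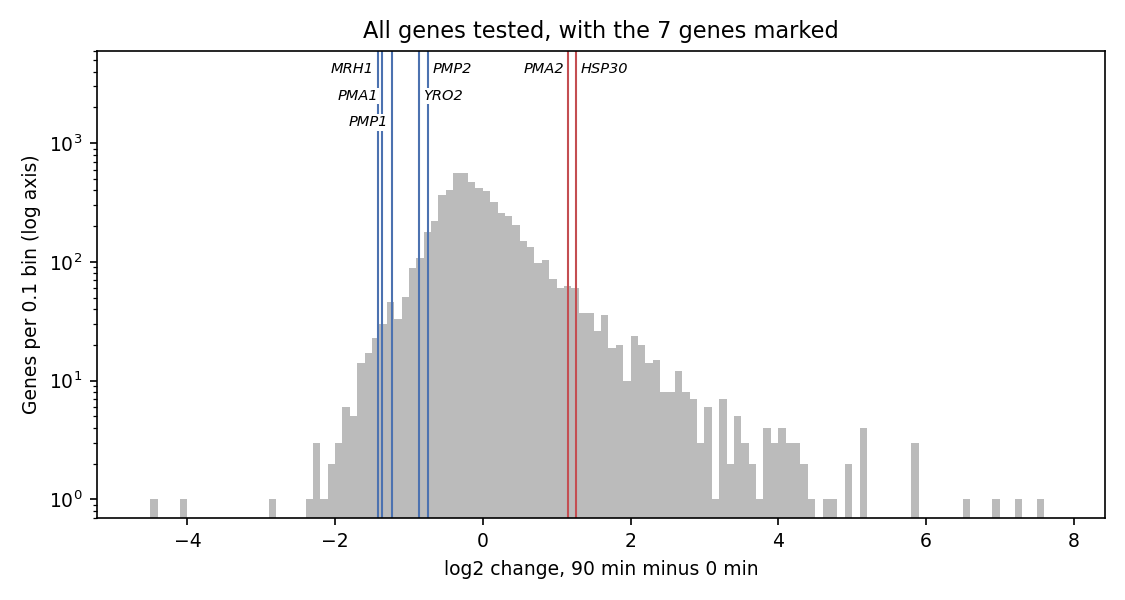
The histogram shows the log2 change of all 6144 genes tested, with counts per bin on a log axis. Lines mark MRH1 (-1.42), PMA1 (-1.36), PMP1 (-1.22), YRO2 (-0.86) and PMP2 (-0.74) on the left side and PMA2 (1.16) and HSP30 (1.26) on the right.

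The choice of scaling moved the sizes of these changes but none of their directions. Over 16 alternative settings, the change of PMA1 ranged from -1.81 to -1.32 and that of MRH1 from -1.87 to -1.37. PMP1 ranged from -1.68 to -1.13, YRO2 from -1.32 to -0.70 and PMP2 from -1.19 to -0.63. HSP30 ranged from 0.81 to 1.39 and PMA2 from 0.71 to 1.23. All 7 genes were called in each of the 16 settings. With spike-in scaling the SE was 0.16 for each of the 7 genes. The spike-in level relative to the 75th percentile was -0.59 and -0.35 log2 on the 0 min arrays. It was 0.004 and -0.04 on the 90 min arrays. Such a shift is shared by all genes of an array, while the fit treats genes as independent. Calls with this scaling therefore do not measure its uncertainty.

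**Figure D3:**
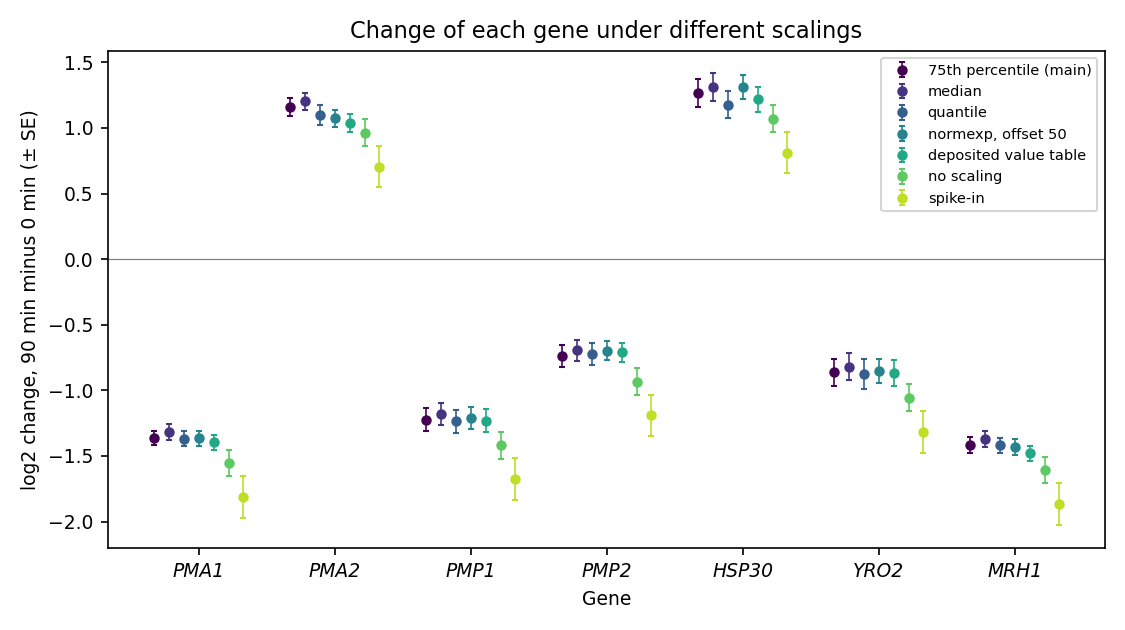
For each of the 7 genes, points give the log2 change (90 min minus 0 min) under 7 ways of scaling or correcting the arrays, and bars give the SE of the limma fit. Spike-in scaling gives the lowest value for every gene, with PMA2 at 0.71 and HSP30 at 0.81 still above 0 and MRH1 at -1.87.

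Ratios of 2 genes within an array do not depend on scaling that shifts all genes of an array alike. Quantile normalization is not such a shift, and the ratios were not computed with it. The ratio also depends on the probes, so only its difference between groups is read. With 2 arrays against 2, the exact permutation test (two-sided) has 6 splits and cannot give a p below 0.333. For 7 of the 8 pairs compared the groups did not overlap. Their exact permutation p was this smallest one, 0.333 (0.381 adjusted over the 8 pairs), so none of these differences passes a test on its own. For single genes, groups did not overlap for 88.4% of all tested, and the share over all pairs of genes was not computed. Each ratio difference restates the changes of its 2 genes given above and is no separate evidence.

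HSP30 against PMA1, the restrainer against the pump, had log2 ratios of -2.42 and -2.65 at 0 min and of -0.01 and 0.18 at 90 min. The group means thus differed 6.18-fold (difference 2.63). The log2 ratio of PMA1 to PMA2 was 8.61 and 8.45 at 0 min and 6.00 and 6.02 at 90 min, a 5.74-fold difference. Within the Hsp30 family, the differences were 4.37-fold for HSP30 over YRO2, 6.41-fold for HSP30 over MRH1 and 1.47-fold for YRO2 over MRH1, untested beyond the smallest p above.

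The proteolipid genes were set against the pump gene and each other in the same way. The log2 ratio of PMA1 to PMP1 was 3.51 and 3.69 at 0 min and 3.37 and 3.55 at 90 min, a difference of -0.14 that lay within the spread between arrays (exact permutation p = 0.667, 0.667 adjusted over 8 pairs, n = 2 per group). A p of this size does not show that they changed alike. The ratio of PMA1 to PMP2 was 4.43 and 4.63 at 0 min and 3.87 and 3.95 at 90 min (difference -0.62), and that of PMP1 to PMP2 was 0.92 and 0.95 and then 0.51 and 0.39 (difference -0.49). For both of these PMP2 pairs the groups did not overlap and the exact permutation p was the smallest possible. With n = 2 per group this test cannot go lower, so it cannot decide whether PMP2 changed differently from the others.

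**Figure D4:**
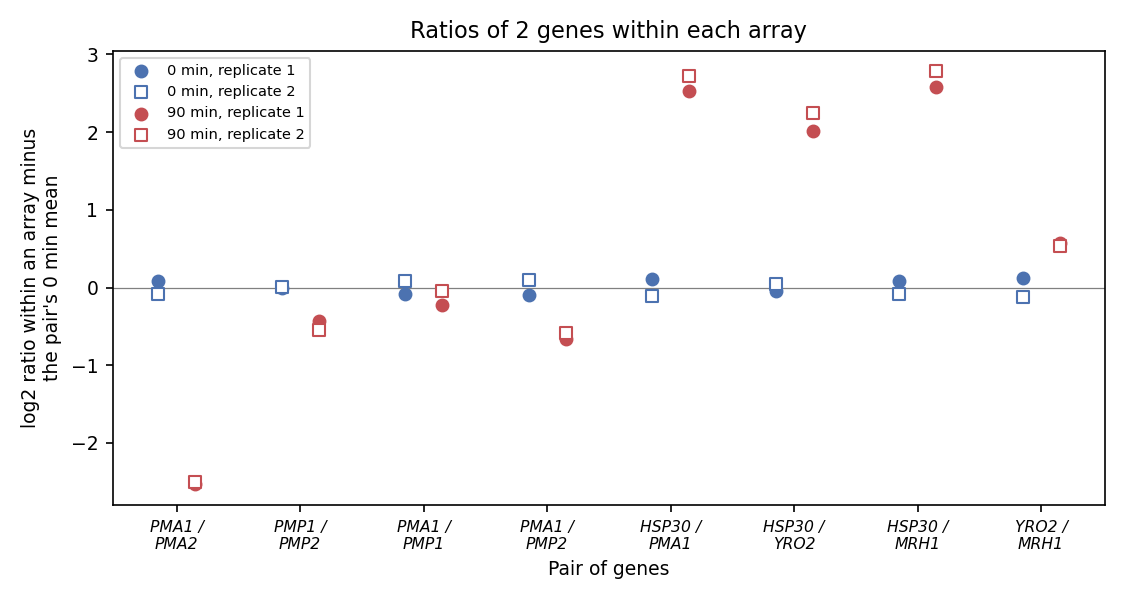
Points give the log2 ratio of 2 genes on each array, relative to the mean of that pair at 0 min. Circles are replicate 1 and squares replicate 2. The HSP30 pairs rise by 2.13 to 2.68, PMA1 over PMA2 falls by 2.52, and PMA1 over PMP1 is the 1 pair whose groups overlap. For single genes, groups did not overlap for 88.4% of all tested.

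HSP30 and PMP1 lie near each other on chromosome III, on the same strand, with 4 genes between them in the R64 annotation. Of these, YCR022C rose by 0.39 ± 0.09, YCR023C fell by 0.24 ± 0.06 and SLM5 fell by 0.77 ± 0.06 on the log2 scale (limma, adjusted p of 0.00566, 0.00741 and 3.31e-05). The change of YCR022C was -0.067 with spike-in scaling and missed the threshold with no scaling, with quantile normalization and in the deposited value table. YCR024C-B, the remaining gene between HSP30 and PMP1, was not measured. A trend of the changes along this stretch was not tested. Around all 7 genes, 11 of the 14 directly adjacent genes were measured, of which 2 rose, 5 fell and 4 did not pass. Of all genes tested, 30.3% rose and 46.2% fell. None of the 14 overlaps a member in that annotation.

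The genes with the most similar pattern over the 4 arrays were found by Euclidean distance between log2 signals centred on each gene's own mean. For PMA1 they were PEX21, GAS1 and RNR1 (distances 0.040, 0.045 and 0.045), and for MRH1 they were PEX21, FAS1 and GAS1 (0.035, 0.043 and 0.049). PEX21 and GAS1 stand in both lists, with changes of -1.40 and -1.37. The nearest genes to PMP1 were MCD4, MIG2 and TOS1 (0.010, 0.065 and 0.074), and those to PMP2 were RTT107, ARO1 and SAC7 (0.029, 0.041 and 0.043). Nearest to HSP30 were BAG7, HER1 and TPS2 (0.096, 0.123 and 0.133), to PMA2 GAT4, SDH8 and ADH7 (0.024, 0.036 and 0.050), and to YRO2 PMU1, AQY2 and FRE6 (0.107, 0.107 and 0.116). With 4 arrays in 2 groups this likeness is mostly a like size of change.

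Genes that serve the pump or share its setting were then read from 8 lists with 78 measured genes. Together 26 rose (33.3%), 35 fell (44.9%) and 17 did not pass, beside 30.3% and 46.2% of all genes, and the median was -0.027. These shares are near the background. Some list members are named because few of their list went that way, after their values were seen.

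Of 8 genes for delivery and quality control of Pma1, 1 rose and 4 fell, with a median of -0.18. AST1, which brings Pma1 to the cell surface, fell 2.42-fold (-1.27 ± 0.07), while its relative AST2 rose 1.8-fold (0.85 ± 0.07). Genes for leaving the endoplasmic reticulum also fell, with log2 changes of -0.49 ± 0.06 for SFB2, -0.44 ± 0.06 for SFB3 (also LST1) and -0.33 ± 0.06 for EXP1. SOP4 (0.043 ± 0.08), PSG1 (-0.026 ± 0.06) and EPS1 (0.13 ± 0.06) did not pass, though EPS1 was called as higher with median scaling (0.18), quantile normalization (0.15), the deposited table (0.15) and a trended prior (0.13), which makes 2 genes of this list that rose. With spike-in scaling PSG1 (-0.48) and SOP4 (-0.41) were called as lower, and PSG1 also with no scaling (-0.22).

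Among 6 kinase and phosphatase genes tied to Pma1, 2 rose and 4 fell, with a median of -0.20. PTK2, whose kinase activates the pump, rose 1.82-fold (0.86 ± 0.06), and its relative PTK1 fell by 0.56 ± 0.07. GLC7, a phosphatase gene, rose by 0.69 ± 0.06, with 0.23 and no call under spike-in scaling, which leaves 1 gene of the list that rose. HRK1, a kinase gene, had a log2 change of -0.20 ± 0.07, and the casein kinase genes YCK1 and YCK2 had -0.21 ± 0.07 and -0.20 ± 0.07. These 3 calls were lost with median scaling, which leaves 1 gene that fell, and without replicate 1 at 0 min the change was -0.12 for HRK1 and -0.14 for YCK2, while without replicate 2 at 0 min it was -0.13 for YCK1. HRK1 and YCK1 were also not called without replicate 1 at 90 min (-0.16 and -0.20), and none of the 3 without replicate 2 at 90 min (-0.23 for HRK1, -0.22 for YCK1 and -0.16 for YCK2).

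The family of Pmp3, a small hydrophobic protein of the plasma membrane that affects its potential, had 3 of 4 genes higher and a median of 0.63. SNA3 rose 1.91-fold, SNA2 1.73-fold and PMP3 1.39-fold, and SNA4 had a log2 change of -0.028 ± 0.06. With spike-in scaling PMP3 was at 0.023 and not called, and SNA4 was called as lower there (-0.48) and with no scaling (-0.22). Among other P-type ATPases 10 of 14 genes fell (71.4%), beside 46.2% of all genes tested, 2 rose and the median was -0.37. ENA5, of the sodium pumps, fell 3.3-fold (-1.72 ± 0.06), although the ENA genes are nearly identical and their signals uncertain. DNF2, a lipid flippase gene, fell 1.53-fold. PMC1, the vacuolar calcium pump gene, rose 1.93-fold and YPK9, of the vacuole membrane, 1.72-fold. DRS2 (-0.043 ± 0.07) and NEO1 (-0.13 ± 0.06) did not pass. Both were called as lower with spike-in scaling (-0.50 and -0.59) and with no scaling (-0.24 and -0.33). In either setting 12 of the 14 genes thus fell, where the medians of all genes tested were -0.58 and -0.32.

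For the proton pump of the vacuole, which acidifies that organelle, 20 of 21 listed genes were measured, and 5 rose and 8 fell, with a median of -0.0049. With spike-in scaling 1 rose and 15 fell (median -0.46), and with no scaling 1 rose and 9 fell. Both settings lower every change alike. The medians of all genes tested were then -0.58 and -0.32, and 15.4% and 26.7% of all calls rose. The list median with spike-in scaling thus lay above that of all genes. RAV2, an assembly gene, rose 2.04-fold (1.03 ± 0.06). VMA10 (0.35 ± 0.06), VMA2 (0.33 ± 0.06), VMA13 (0.24 ± 0.06) and VMA4 (0.16 ± 0.06) rose on the main scale, but with spike-in scaling their changes were -0.11, -0.12, -0.21 and -0.29. None of the 4 was called with no scaling either. VMA4 was not called without replicate 1 at 0 min (0.16), without replicate 2 at 0 min (0.16) or without replicate 2 at 90 min (0.12), nor in the deposited value table (0.045), nor was VMA13 without replicate 2 of either group (0.23 and 0.18). The assembly gene VMA21 fell by 0.59 ± 0.08, VPH1 by 0.46 ± 0.08 and VMA5 by 0.45 ± 0.06. No member of this list fell 2-fold.

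Of 12 genes of potassium, sodium and membrane potential, 7 rose and 3 fell, with a median of 0.27. The counts were 3 higher and 5 lower with spike-in scaling, which lowers every change by 0.45. The list median was then -0.18 and stayed above the median of all genes tested, which was -0.58. Of all calls in that setting, 15.4% rose. PPZ2, a phosphatase gene of salt tolerance, rose 4.19-fold (2.07 ± 0.06), HAL5, a kinase gene for potassium uptake, 1.89-fold, and VHS3, which encodes an inhibitor of that phosphatase family, 1.82-fold. TRK2, a potassium transporter gene, rose by 0.59 ± 0.08 and was not called with spike-in scaling (0.14). KHA1 fell by 0.55 ± 0.06, TRK1 by 0.28 ± 0.06 and PPZ1 by 0.17 ± 0.06, of which PPZ1 lost its call without any 1 of the arrays (-0.22 to -0.12), with median scaling (-0.13), with quantile normalization (-0.091), in the deposited value table (-0.11) and with no filter. NHA1 (0.11 ± 0.12) and SIS2 (0.098 ± 0.05) did not pass, and with spike-in scaling both were called as lower (-0.34 and -0.35).

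Weak acids raise the demand on the pump, and 8 genes of that response split, with 3 higher and 4 lower and a median of -0.16. SPI1, a cell wall gene, rose 6.48-fold (2.70 ± 0.07) and YGP1, a secreted glycoprotein gene, 2.59-fold (1.37 ± 0.07). TPO2, a polyamine exporter gene, fell 2.97-fold (-1.57 ± 0.09), PDR12, a weak acid exporter gene, 1.63-fold, TPO3 by 0.45 ± 0.10 and WAR1, the activator of PDR12, by 0.38 ± 0.06. HAA1 rose by 0.26 ± 0.06, but was not called with no scaling (0.064) or with spike-in scaling (-0.19). PHM8 (0.062 ± 0.07) did not pass, and was called as lower with spike-in scaling (-0.39). Among genes that Haa1 is known to activate, YRO2, TPO2 and TPO3 fell and YGP1 and SPI1 rose. These are not all of its targets, and the targets were not counted as a set.

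Among 6 transcription factor genes with a known link to PMA1 or to stress genes, RAP1 and GCR1, whose products activate PMA1 and glycolytic genes, fell 1.72-fold (-0.78 ± 0.06) and 1.67-fold (-0.74 ± 0.06). GCR2 had a change of 0.018 ± 0.06 and did not pass, and was called as lower with spike-in scaling (-0.43). Besides MSN2, MSN4 rose by 0.48 ± 0.06 and HSF1, the heat shock factor gene, by 0.30 ± 0.08. The MSN4 change was 0.023 with spike-in scaling and not called, and the HSF1 change was -0.16, which leaves MSN2 as the 1 gene of the list that rose. HSF1 was also not called with no scaling (0.10) or without replicate 1 at 0 min (0.28).

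**Figure D5:**
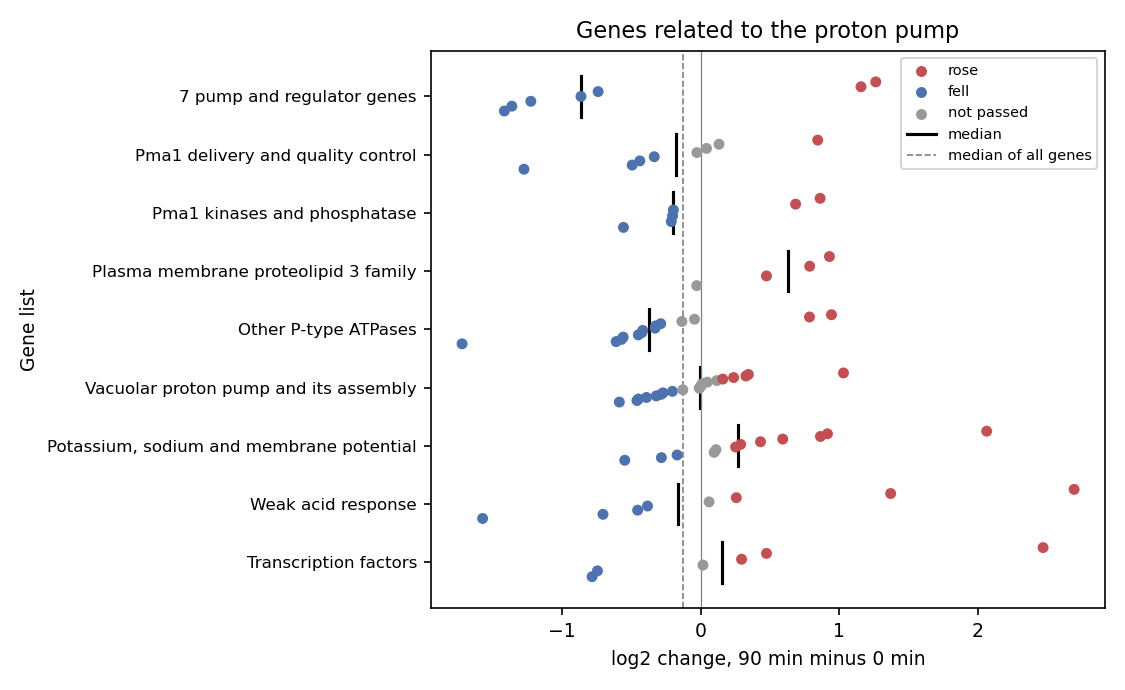
Each point is the log2 change of 1 gene, with genes that rose in red, genes that fell in blue and those that did not pass in grey. Thick lines are list medians and the dashed line is the median of all genes tested (-0.13). The 7 pump and regulator genes have the lowest median (-0.86) and the Pmp3 family the highest (0.63) of the lists shown.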

How the data were processed

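Spot intensity came from Agilent Feature Extraction 10.7.3.1, per the file headers, which also name sacCer2 as the design's build. The steps that corrected the processed intensity are not stated there. The deposited value table holds log2 values, and limma is named for it in the submitters' processing notes. Its columns have medians of 11.65 to 11.67 and track the scanner's log2 median signal (Pearson's r 0.9995 to 0.9998 over 6256 probes, slopes 1.01 to 1.04). They are not centred per gene, and whether background was removed is unknown.

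Log2 processed signal was taken relative to each array's 75th percentile of 12512 yeast spots, and both spots of each probe were averaged, leaving out outlier spots (3 to 10 per array). Probes well above background on both arrays of a group were tested (6175 of 6256), and a gene was its brightest probe. Names came from the R64 RefSeq table by locus tag (5748 probes) or accession (17), with 491 left as in the files. All 7 members passed. The comparison of 90 min with 0 min used limma 3.58.1 under R 4.3.3 (two-sided, Benjamini-Hochberg over probes, threshold 0.05, prior degrees of freedom 4.46 beside 2 residual). Replicates within a group correlated at r = 0.9985 to 0.9990 over genes, and 2 arrays per group limit the precision.

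Members and lists were chosen with earlier results of these data known. The text names all members, up to 4 called genes per list by size of change, and the 3 genes nearest in pattern to each member. Alternatives covered scaling, background correction, the value table, filters, the variance prior, a replicate block, thresholds and leaving out each array. Normexp (offset 50) used the median spot signal. The pipeline was tested on simulated data. The planned promoter and protein comparison was not run, since sequences were not used here. Figures were drawn with Python 3.11.15 and matplotlib 3.10.9.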

Additional observations from a re-analysis of the deposited data

How the results depend on the processing

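All 7 members kept their direction and their call in each of 16 alternatives. Leaving out single arrays gave -1.38 to -1.35 for PMA1, 1.09 to 1.23 for PMA2, -1.32 to -1.13 for PMP1, -0.85 to -0.63 for PMP2, 1.14 to 1.39 for HSP30, -1.02 to -0.70 for YRO2 and -1.46 to -1.37 for MRH1. All 8 ratio differences within arrays kept their direction with normexp, in the deposited table and without each array, with ranges such as -2.60 to -2.43 for PMA1 to PMA2 and -0.23 to -0.043 for PMA1 to PMP1. The replicate numbers are not stated to mark a shared culture; same-numbered arrays deviated together at r = 0.20 over genes, from 2 pairs. With the replicate block, the genes that rose numbered 1952 and the genes that fell 2974, against 1860 and 2840 without it, and the block changed no member's call; the lowest size there was -0.74, for PMP2. Among the other named genes it added a call for NEO1.

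The genes that rose numbered 745 with spike-in scaling and 1288 with no scaling, and the genes that fell 4090 and 3532. The share of calls that rose was 15.4% and 26.7%, against 39.6%. With these scalings an array's shift is shared by all its genes, so the counts do not measure the uncertainty of the scaling. At least 2-fold, 548 rose and 238 fell. The related genes that rose numbered 13 with spike-in scaling and 18 with no scaling, against 26, and the related genes that fell 51 and 40, against 35.

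Other named genes changed sign in some settings. Spike-in scaling and no scaling lower every change alike by construction, and for the other settings the cause was not tested. With spike-in scaling these were SOP4 (-0.41), EPS1 (-0.32), VMA2 (-0.12), VMA4 (-0.29), VMA10 (-0.11), VMA13 (-0.21), NHA1 (-0.34), SIS2 (-0.35), HAA1 (-0.19), PHM8 (-0.39), GCR2 (-0.43), HSF1 (-0.16) and YCR022C (-0.067). With no scaling they were SOP4 (-0.15), EPS1 (-0.061), VMA4 (-0.033), NHA1 (-0.082), SIS2 (-0.096), PHM8 (-0.13) and GCR2 (-0.18). With median scaling they were PSG1 (0.018), SNA4 (0.016) and DRS2 (0.00028). DRS2 was 0.018 with quantile normalization and 0.00075 in the deposited table, and GCR2 was -0.0032 after normexp. Leaving out single arrays gave -0.047 to 0.13 for SOP4, -0.055 to 0.0030 for PSG1, -0.12 to 0.029 for DRS2, -0.023 to 0.25 for NHA1, -0.018 to 0.14 for PHM8 and -0.0078 to 0.043 for GCR2. With 1 array left in a group, that array is assumed to vary like the other group.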
